A study of Mus musculus with 28 samples.

Results

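The 9 genes described here carry the transforming growth factor beta (TGF-beta) signal from secreted ligand to induced target. They are the ligands Tgfb1, Tgfb2 and Tgfb3, the receptors Tgfbr1, Tgfbr2 and Tgfbr3, the intracellular mediators Smad3 and Smad7, and the target Ctgf (connective tissue growth factor, also named Ccn2). They were matched by symbol in the gene table and make up 9 of its 45513 rows. All 9 passed the filter on low counts.

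RNA-seq counts came from ventricular myocardium of 28 male C57BL/6 mice, a common inbred laboratory strain. Chronic kidney disease (CKD) was modelled by a staged 5/6 nephrectomy at 6 weeks of age, and the controls had sham operations. Every mouse, controls included, ate a diet with 1% hydroxyproline, an oxalate precursor, and 0.5% calcium. On day 7 each received a single oral gavage of Oxalobacter formigenes (Oxf), a gut bacterium that degrades oxalate, or of culture medium as vehicle. The groups analysed were sham-vehicle (n = 10), CKD-vehicle (n = 6), sham-Oxf (n = 5) and CKD-Oxf (n = 7), of 10 mice per group in the study's design. The series title asks whether colonization limits cardiac remodelling in CKD.

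TGF-beta ligands are secreted in a latent complex held in the matrix and are released by integrins and proteases. The active ligand binds the type II receptor, encoded by Tgfbr2, which recruits and phosphorylates the type I receptor, encoded by Tgfbr1. That kinase phosphorylates Smad2 and Smad3, which enter the nucleus with Smad4 and switch on genes of matrix synthesis. Tgfbr3 encodes betaglycan, a co-receptor that presents ligand, above all TGF-beta 2. Smad7 is induced by the pathway and blocks the type I receptor as negative feedback. In the heart the pathway is best known for driving fibroblasts to become matrix-secreting myofibroblasts, with CTGF among the induced secreted proteins.

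Promoters are shown for the ligand pair and the receptor pair whose values carry most of the results below. Sequences are from RefSeq (GRCm38.p6, 5′ to 3′ on the gene's strand) and hold the 250 bases before the transcription start. Promoters were taken for 5 of the 9 genes. Tgfb3, Tgfbr3 and Ctgf had no entry, and Smad7 was left out of the search. Capitals mark the SMAD-binding element (CAGAC or GTCTG), the E-box (CACGTG) and the Sp1 GC box (GGGCGG or CCGCCC). No capital in these 4 windows belongs to more than 1 motif.
Tgfb1, chr7:25686752-25687001, plus strand: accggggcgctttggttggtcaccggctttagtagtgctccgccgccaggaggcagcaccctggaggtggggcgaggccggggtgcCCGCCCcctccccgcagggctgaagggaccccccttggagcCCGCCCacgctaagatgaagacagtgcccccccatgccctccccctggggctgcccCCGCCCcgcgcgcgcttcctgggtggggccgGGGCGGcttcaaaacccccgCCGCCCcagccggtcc
Tgfb2, chr1:186705990-186706239, minus strand: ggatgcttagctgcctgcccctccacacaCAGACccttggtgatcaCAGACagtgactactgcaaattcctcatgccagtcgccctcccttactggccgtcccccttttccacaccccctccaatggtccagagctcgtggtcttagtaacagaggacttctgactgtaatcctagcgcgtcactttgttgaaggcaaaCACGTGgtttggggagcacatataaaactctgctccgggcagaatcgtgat
Tgfbr1, chr4:47352972-47353221, plus strand: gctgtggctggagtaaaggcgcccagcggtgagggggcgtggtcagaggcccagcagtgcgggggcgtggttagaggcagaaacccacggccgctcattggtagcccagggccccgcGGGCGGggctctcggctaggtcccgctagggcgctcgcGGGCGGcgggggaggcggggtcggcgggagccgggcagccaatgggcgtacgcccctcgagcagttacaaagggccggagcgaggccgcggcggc
Tgfbr2, chr9:116175364-116175613, minus strand: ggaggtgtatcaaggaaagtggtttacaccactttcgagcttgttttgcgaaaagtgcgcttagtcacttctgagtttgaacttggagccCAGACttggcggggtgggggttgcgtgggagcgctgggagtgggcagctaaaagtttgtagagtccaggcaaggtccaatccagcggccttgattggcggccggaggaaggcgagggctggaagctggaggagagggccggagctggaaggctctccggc

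The Tgfb1 window held 5 GC boxes and no SMAD element, and 75.2% of its bases were G or C, above 96.1% of the 32851 mouse windows of the same length. The Tgfb2 window was of a different kind, with 53.6% G or C against a median of 52.4%, no GC box, 2 SMAD elements at positions -221 and -204 from the start, and 1 E-box. The Tgfbr1 window printed, which ends at the annotated gene start, held 2 GC boxes, and the Tgfbr2 window 1 SMAD element. RefSeq has another Tgfbr1 window, at chr4:47385966-47386215 inside the gene, with 52.8% G or C, no GC box and 1 SMAD element at position -203. These motifs are common: 42.2% of all windows held a SMAD element, 32.7% a GC box and 6.02% an E-box. The search also covered the TEAD core (GGAATG or CATTCC, in 12.6% of all windows) and the AP-1 site (TGANTCA, in 6.75%), and neither was in any of the 4. A match is a run of letters and was not tested as a binding site.

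The libraries held 19798965 to 65378162 counts, and each of the 9 genes had 312 to 5665 counts in every library. One library, sham-Oxf replicate 1, stood apart, with 15879 genes detected against 27128 to 33995 in the others and the smallest total. Of the cardiomyocyte markers, Myh6, the main adult cardiac myosin heavy chain, ranged from 11284 to 29665 CPM (counts per 1000000 counts of the scaled library). Summed CPM of the 4 atrial markers ranged from 15.6 to 1689. Clock genes differed between groups. The clock score was the mean log2 CPM of 9 clock genes minus that of 4 others, relative to sham-vehicle. The 9 were Dbp, Tef, Hlf, Per1, Per2, Per3, Nr1d1, Nr1d2 and Ciart, and the 4 were Arntl, Npas2, Clock and Nfil3. This score averaged -1.61 for CKD-vehicle, 1.23 for CKD-Oxf and 1.85 for sham-Oxf. Its values in CKD-vehicle (-2.64 to -0.30) and CKD-Oxf (-0.16 to 1.87) did not overlap. Clock level and gavage thus cannot be told apart in CKD mice. The share of counts from 7SL, the noncoding part of the particle that targets proteins for secretion, was 9.78% ± 5.24 (SD) in sham-vehicle and 4.14% ± 3.52 in sham-Oxf, then 13.6% ± 6.80 in CKD-vehicle and 8.81% ± 6.26 in CKD-Oxf. In bulk tissue, fewer cells of a type and less RNA per cell cannot be told apart.

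Per kilobase of merged exon, Ctgf was the most abundant of the 9 over the 28 hearts, at 24.2 ± 9.34 CPM per kb (mean ± SD). Smad7 followed at 13.4 ± 2.88 and Tgfbr3 at 12.3 ± 1.59, and their difference within hearts was not tested. Tgfb3 lay at 6.40 ± 1.25, Tgfbr2 at 5.30 ± 0.946, Tgfb1 at 4.56 ± 0.840 and Smad3 at 4.15 ± 0.787, each within 1 SD or so of its neighbour. Their order within hearts was likewise not tested. At the bottom stood Tgfbr1, at 3.31 ± 0.626, and Tgfb2, at 2.10 ± 0.430. On this length-corrected scale the co-receptor Tgfbr3 was thus above both signalling receptors, and Tgfb2 was the lowest of the 3 ligands.

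None of the 9 genes passed the test in edgeR in any comparison, which does not show that they were unchanged. In edgeR's quasi-likelihood test with Benjamini-Hochberg adjustment over 24273 genes, 0 of 9 passed an adjusted p of 0.05 in CKD-vehicle against sham-vehicle, where 0.00824% of all genes passed. The same count, 0 of 9, held for CKD-Oxf against CKD-vehicle (0.0330% of all genes), sham-Oxf against sham-vehicle (0%), CKD-Oxf against sham-Oxf (0%) and the interaction of surgery and gavage (0%). It held too for Oxf averaged over both surgeries, where 2.81% of all genes passed, and for surgery averaged over both gavages (0%). At an unadjusted p under 0.05 the members numbered 1, 2, 0, 1, 1, 4 and 2 of 9 in that order of comparisons, against 4.46%, 13.1%, 12.6%, 8.23%, 3.55%, 23.0% and 10.6% of all genes.

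The choice of test mattered for 3 members. DESeq2 passed 0 of 9 in all 7 comparisons, in which it passed, in the same order, 0.120%, 0.785%, 0.541%, 0.421%, 0%, 9.97% and 0.485% of all genes. limma voom with sample weights passed Tgfb1 and Smad7 in CKD-Oxf against CKD-vehicle, with adjusted p-values of 0.0330 and 0.0428, in a test that passed 14.9% of all genes. For Oxf averaged over surgery it passed Smad7 (adjusted p = 0.0263) and Tgfbr3 (adjusted p = 0.0389), where it passed 21.9% of all genes. In the other 5 comparisons it passed 0 of 9, beside 0.227% of all genes in CKD-vehicle against sham-vehicle, 0.132% in sham-Oxf against sham-vehicle, 0.515% for surgery averaged over gavage and 0% in the other two.

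**Figure D1:**
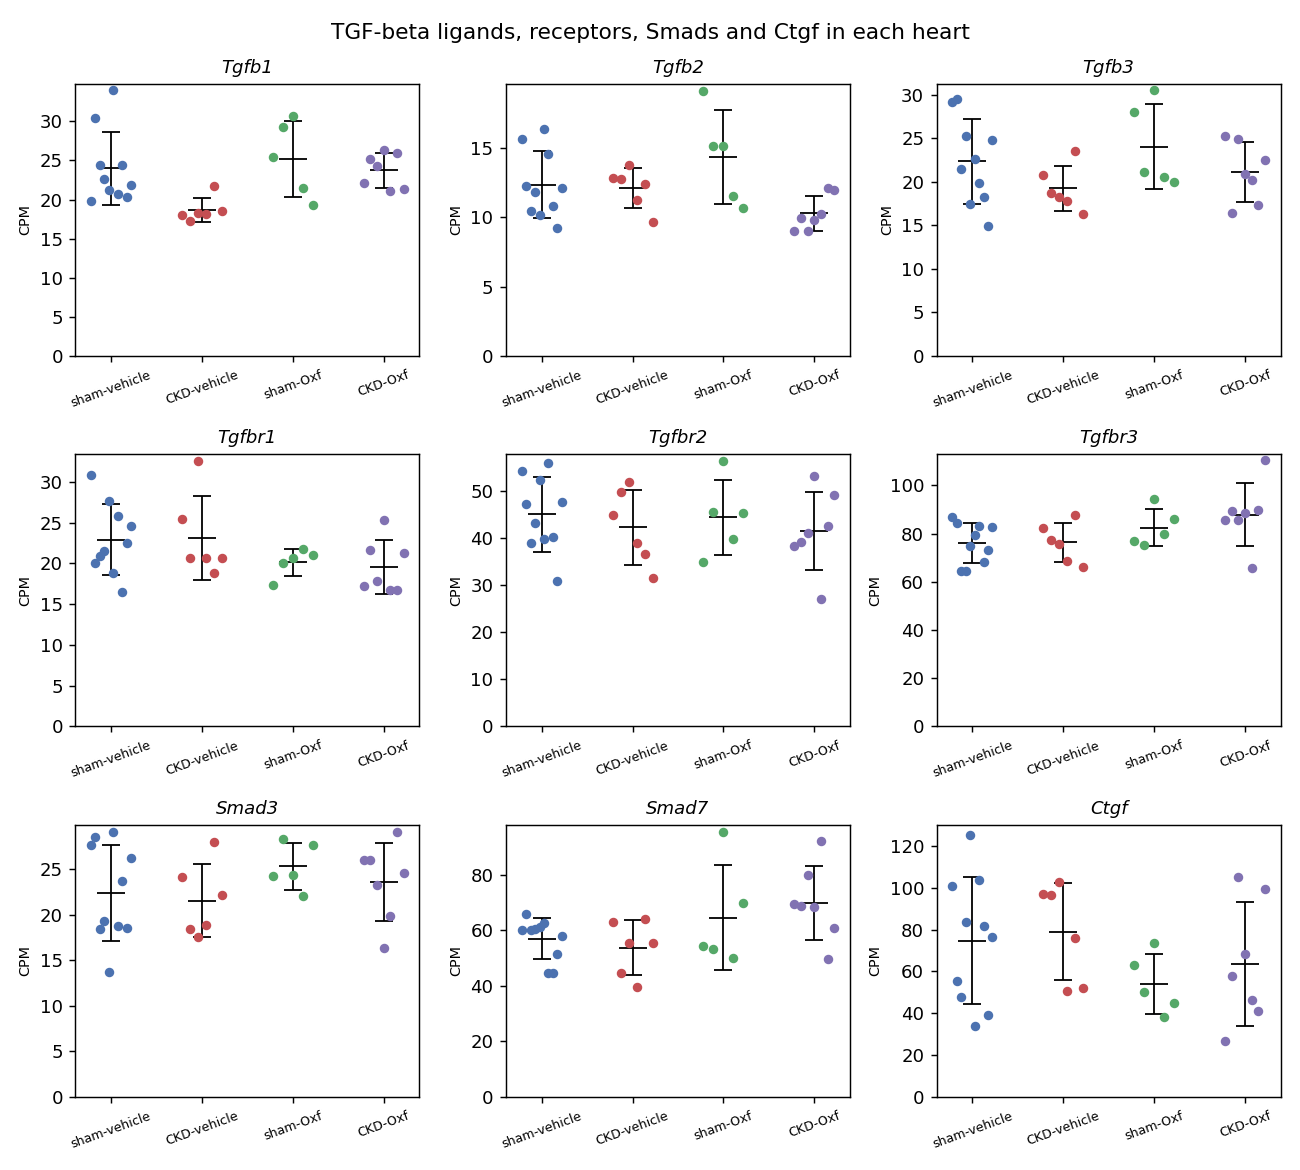
CPM of each gene (vertical axis, from 0) in each of the 28 hearts by group; points are mice and bars the mean ± SD. Tgfb1 in CKD-vehicle sits between 17.3 and 21.7 CPM, with 5 of 6 mice below the lowest sham-vehicle mouse, and Ctgf is the widest within groups.

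Tgfb1 encodes the ligand most often tied to fibrosis. The gene (ENSMUSG00000002603) lies on chromosome 7 at 25687002 to 25705077 on the plus strand of GRCm38, and no other annotated gene overlaps it. It had its lowest group mean in CKD-vehicle and near-equal means elsewhere. In sham-vehicle its lowest, median and highest values were 19.8, 22.3 and 34.0 CPM. In CKD-vehicle they were 17.3, 18.3 and 21.7 CPM, so that all 6 mice were below the sham-vehicle median and 5 of them below its lowest mouse. Replicate 5, at 21.7 CPM, was the 1 inside the sham-vehicle range. The sham-Oxf mice had 25.5, 29.2, 30.7, 21.5 and 19.3 CPM. In CKD-Oxf the range was 21.1 to 26.4 with a median of 24.3 CPM, and all 7 mice were above the CKD-vehicle median.

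The Tgfb1 difference of CKD-vehicle from sham-vehicle was -0.36 ± 0.12 on the log2 scale (SE), with a 95% interval of -0.60 to -0.12. Its unadjusted p was 0.00491 and its adjusted p 0.955 (edgeR), so it did not pass. CKD-Oxf differed from CKD-vehicle by 0.35 ± 0.13 (unadjusted p = 0.0102, adjusted p = 0.270, edgeR). Both differences use the same 6 CKD-vehicle hearts, so their opposite signs are not separate evidence. The difference of sham-Oxf from sham-vehicle was 0.07 ± 0.12, with an interval of -0.18 to 0.33. The interaction, which tests whether the Oxf difference depended on surgery, was 0.27 ± 0.18 (adjusted p = 1.0, edgeR).

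The platelet score, from 4 genes of a cell type rich in TGF-beta 1, averaged -0.77 for sham-Oxf, -0.15 for CKD-vehicle and 0.74 for CKD-Oxf relative to sham-vehicle. All 4 of its genes were detected, and their summed level spanned 12.3 to 42.5 CPM for sham-Oxf, 14.9 to 79.5 for sham-vehicle, 9.38 to 63.0 for CKD-vehicle and 26.1 to 142.6 for CKD-Oxf. Within groups, Tgfb1 followed that score weakly, with a Pearson r of 0.15 and a Spearman rho of 0.10 over 28 libraries (adjusted permutation p of 0.765 and 0.840). With the clock score as a covariate, the Tgfb1 difference was -0.39 between CKD-vehicle and sham-vehicle and 0.40 between CKD-Oxf and CKD-vehicle. With the 7SL share as a covariate these were -0.32 and 0.29. Because CKD-Oxf and CKD-vehicle did not overlap in clock score, that covariate cannot separate clock level from gavage between them.

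Tgfb2 encodes the ligand that depends most on betaglycan. It lies on chromosome 1 at 186622792 to 186705989, minus strand (ENSMUSG00000039239), and overlaps the antisense gene Gm29491 and the small nucleolar RNA gene Gm26169, both on the other strand. Its lowest group was CKD-Oxf, with a range of 8.99 to 12.1 and a median of 9.96 CPM. The sham-Oxf mice had 19.2, 15.2, 15.2, 11.6 and 10.7 CPM. All 7 CKD-Oxf mice were below the sham-Oxf median and also below the CKD-vehicle median, though neither pair of groups was separate.

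CKD-Oxf differed from sham-Oxf in Tgfb2 by -0.48 ± 0.15 (unadjusted p = 0.00356, adjusted p = 0.295, edgeR). The highest value, 19.2 CPM, was that of sham-Oxf replicate 1, the library with few detected genes. Without it the difference was -0.35 (unadjusted p = 0.0240, adjusted p = 0.683, edgeR), and limma voom with sample weights gave -0.26 (adjusted p = 0.662) with it. In sham-vehicle Tgfb2 ran from 9.24 to 16.4 CPM with a median of 12.004, and in CKD-vehicle from 9.68 to 13.8 with a median of 12.6. The difference of CKD-vehicle from sham-vehicle was -0.03 ± 0.13, with an interval of -0.30 to 0.25. The Tgfb2 interaction was -0.45 ± 0.20 (unadjusted p = 0.0324, adjusted p = 1.0, edgeR), and -0.33 (unadjusted p = 0.0998) without that library. With limma voom the interaction was -0.23 (adjusted p = 0.828).

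Tgfb3, the ligand expressed in connective tissue and valves, lies on chromosome 12 at 86056745 to 86079041, minus strand (ENSMUSG00000021253). It overlaps Ttll5, a protein-coding gene on the other strand, as well as Gm37804 and Gm48008, and without strand information their reads cannot be told apart. Its group means were 22.3 ± 4.87 CPM (SD) in sham-vehicle and 24.0 ± 4.87 in sham-Oxf, then 19.2 ± 2.56 in CKD-vehicle and 21.1 ± 3.44 in CKD-Oxf. The order of these means matched that of Tgfb1, and all 4 groups overlapped. The largest of its pairwise differences, CKD-vehicle against sham-vehicle, was -0.22 ± 0.14, with an interval of -0.50 to 0.07 (adjusted p = 0.955, edgeR). The Tgfb3 values moved most with the clock score as a covariate: CKD-vehicle against sham-vehicle became -0.42 (unadjusted p = 0.00731, adjusted p = 1.0, edgeR). CKD-Oxf against CKD-vehicle went from 0.13 to 0.52 (adjusted p = 1.0, edgeR) and Oxf averaged over surgery from 0.12 to 0.45 (adjusted p = 0.507, edgeR).

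**Figure D2:**
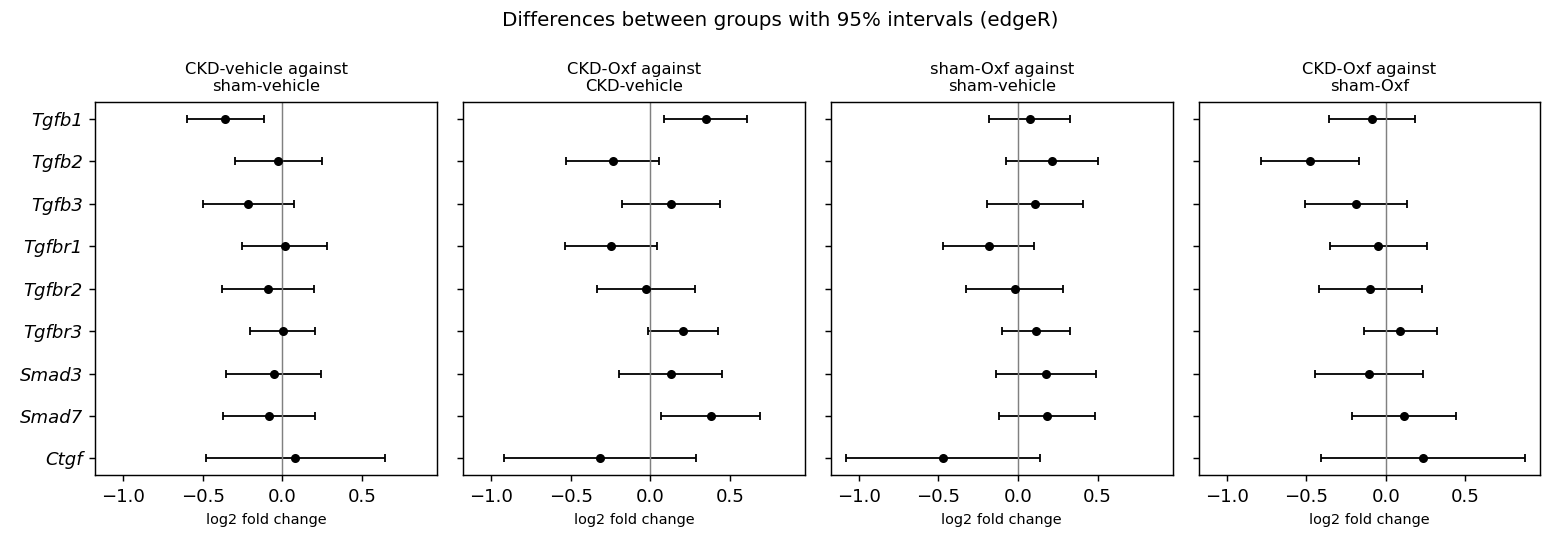
Log2 fold change of the 9 genes in the 4 comparisons between pairs of groups; points are edgeR estimates and bars 95% intervals. Intervals of Tgfb1 (left panels), Smad7 (second from left) and Tgfb2 (last) leave out 0, and none of these passed after adjustment.

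Tgfbr1 and Tgfbr2 encode the signalling receptor kinases. Tgfbr1 lies on chromosome 4 at 47353222 to 47414931, plus strand (ENSMUSG00000007613), and Tgfbr2 on chromosome 9 at 116084293 to 116175360, minus strand (ENSMUSG00000032440). Tgfbr1 averaged 22.9 ± 4.36 CPM (SD) in sham-vehicle and 20.2 ± 1.67 in sham-Oxf, then 23.1 ± 5.14 in CKD-vehicle and 19.5 ± 3.32 in CKD-Oxf. All 5 sham-Oxf mice, at 17.4, 20.1, 20.6, 21.7 and 20.98 CPM, were below the sham-vehicle median of 21.97. Averaged over surgery, the Oxf difference in Tgfbr1 was -0.21 ± 0.10 (unadjusted p = 0.0400, adjusted p = 0.194, edgeR), which became -0.086 with the clock covariate and -0.13 with the 7SL covariate.

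Tgfbr2 had the smallest spread between group means of the 9, from 41.4 ± 8.34 CPM in CKD-Oxf to 44.99 ± 7.91 in sham-vehicle. Its pairwise differences lay between -0.10 and -0.02 on the log2 scale, with standard errors of 0.14 to 0.16. The interval of Oxf averaged over surgery was -0.24 to 0.19.

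Tgfbr3, the betaglycan gene, lies on chromosome 5 at 107106570 to 107289629, minus strand (ENSMUSG00000029287), and shares that strand with the unverified transcripts Gm43422, Gm43423 and Gm42900. It was the most even of the 9 between hearts of a group, with a pooled SD of 0.17 on the log2 scale. Its means were 76.2 ± 8.33 CPM (SD) in sham-vehicle and 82.5 ± 7.77 in sham-Oxf, then 76.3 ± 8.23 in CKD-vehicle and 87.9 ± 13.1 in CKD-Oxf. In CKD-Oxf 6 of 7 mice were above the CKD-vehicle median, with values from 65.6 to 110.7 CPM. Averaged over surgery the Oxf difference was 0.16 ± 0.075 (unadjusted p = 0.0430, adjusted p = 0.201, edgeR), and 0.079 with the 7SL share as a covariate.

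Smad3 is the receptor-activated transcription factor of the pathway. It lies on chromosome 9 at 63646767 to 63757994, minus strand (ENSMUSG00000032402). Group means were 22.4 ± 5.29 CPM (SD) in sham-vehicle and 25.3 ± 2.59 in sham-Oxf, then 21.5 ± 4.01 in CKD-vehicle and 23.5 ± 4.28 in CKD-Oxf. All 5 sham-Oxf mice, from 22.05 to 28.3 CPM, were above the sham-vehicle median of 21.5, and the difference was 0.18 ± 0.15 (adjusted p = 0.673, edgeR). Within groups, Smad3 was lower in libraries with more 7SL RNA, with r = -0.76 and rho = -0.80 over 28 libraries (adjusted permutation p = 0.00045 for both). Without the 2 libraries farthest from the median 7SL share, r was -0.71. With that share as a covariate the Smad3 difference changed sign in all 7 comparisons, for Oxf averaged over surgery from 0.15 to -0.04.

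Smad7, the inhibitory Smad, lies on chromosome 18 at 75367529 to 75395935, plus strand (ENSMUSG00000025880). Its highest group median was that of CKD-Oxf and its lowest that of sham-Oxf. In CKD-vehicle its lowest, median and highest values were 39.6, 55.5 and 64.1 CPM. In CKD-Oxf they were 49.7, 68.7 and 92.1 CPM, with 6 of 7 mice above the CKD-vehicle median and overlap at the lower end. The sham-vehicle mice ran from 44.7 to 65.9 with a median of 60.1 CPM. Those of sham-Oxf had 54.2, 53.2, 95.2, 49.96 and 70.0 CPM, so that 1 mouse lifted the mean to 64.5 ± 18.8 (SD) while the median was 54.2.

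The Smad7 difference of CKD-Oxf from CKD-vehicle was 0.38 ± 0.15, with an interval of 0.07 to 0.69 (unadjusted p = 0.0191, adjusted p = 0.307, edgeR). In sham mice the Oxf difference was 0.18 ± 0.15, with an interval of -0.12 to 0.49. The interaction was 0.20 ± 0.21 (adjusted p = 1.0, edgeR), so the 2 settings were not shown to differ. Averaged over surgery it was 0.28 ± 0.11 (unadjusted p = 0.0133, adjusted p = 0.118, edgeR). Without sham-Oxf replicate 3, the mouse with 95.2 CPM, that average was 0.18 (unadjusted p = 0.0729, adjusted p = 0.254, edgeR) and the difference in sham mice -0.010. CKD-vehicle and sham-vehicle differed by -0.08 ± 0.14, with an interval of -0.37 to 0.21.

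Ctgf encodes a secreted matricellular protein and is a widely used readout of TGF-beta and of YAP and TEAD activity. It lies on chromosome 10 at 24595442 to 24598683, plus strand (ENSMUSG00000019997), and overlaps Gm15270 on the other strand. Ctgf was the most variable of the 9. Its pooled SD within groups was 0.59 on the log2 scale, against 0.17 to 0.29 for the others and a median of 0.29 over genes with a mean of 3 to 7 log2 CPM. The highest of the 28 hearts had 4.69 times the Ctgf of the lowest.

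In sham-vehicle Ctgf ran from 33.9 to 125.3 CPM with a median of 79.2, and in CKD-vehicle from 50.4 to 102.7 with a median of 86.2. The sham-Oxf mice had 63.2, 50.1, 73.6, 38.1 and 45.1 CPM, all below the sham-vehicle median. In CKD-Oxf the range was 26.7 to 105.0 with a median of 57.6 CPM, and 5 of 7 mice were below the CKD-vehicle median. The Oxf difference averaged over surgery was -0.39 ± 0.21, with an interval of -0.82 to 0.04 (unadjusted p = 0.0706, adjusted p = 0.260, edgeR). With the clock score as a covariate it was -0.12. CKD-vehicle differed from sham-vehicle by 0.08 ± 0.27, and the interval of -0.48 to 0.64 spans lower as well as higher Ctgf.

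The 9 genes did not move as a block. In CKD-vehicle against sham-vehicle 6 were below 0 and 3 above, with a median log2 fold change of -0.06 beside -0.03 for all genes tested. In CKD-Oxf against CKD-vehicle 5 were above 0 and 4 below, with a median of 0.13 beside 0.03. For Oxf averaged over surgery the split was again 5 above and 4 below, with a median of 0.12 beside 0.00. In that comparison the ligand Tgfb1, the co-receptor Tgfbr3 and the inhibitor Smad7 had positive values, and the receptor Tgfbr1 and the target Ctgf negative ones.

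The wider pathway was read from 56 listed genes of latency, receptor partners, Smads and their regulators, extracellular inhibitors, targets and the CCN family, of which 54 were tested. Cthrc1 and Wisp3 were too low. In edgeR 0 of 54 passed in each of the 7 comparisons, and 4, 7, 7, 5, 0, 19 and 7 had an unadjusted p under 0.05, in the order used above. The shares of all genes under that p were 4.46%, 13.1%, 12.6%, 8.23%, 3.55%, 23.0% and 10.6%, so that 7 of 54 in CKD-Oxf against CKD-vehicle and in sham-Oxf against sham-vehicle was near the background. The gene of the list nearest to the threshold was Cdkn1a, the cell cycle inhibitor p21, for Oxf averaged over surgery. Its difference was -0.94 ± 0.27 (unadjusted p = 0.00141, adjusted p = 0.0501, edgeR).

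Several other listed genes had the smallest p of their comparison. Klf10, the TGF-beta inducible early gene, differed by -0.40 in CKD-vehicle against sham-vehicle (adjusted p = 0.955, edgeR). Cdkn1a differed by -1.21 ± 0.37 in CKD-Oxf against CKD-vehicle (adjusted p = 0.214, edgeR). Postn, the myofibroblast matrix protein periostin, differed by -0.78 in sham-Oxf against sham-vehicle (adjusted p = 0.259, edgeR). Lrrc32, which encodes the surface anchor of latent TGF-beta known as GARP, differed by -0.71 ± 0.18 in CKD-Oxf against sham-Oxf (adjusted p = 0.195) and by -0.50 ± 0.12 for surgery averaged over gavage (adjusted p = 0.230, both edgeR). Klf10 had the smallest p of the interaction, with a value of 0.45 (unadjusted p = 0.0501, edgeR).

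By role, the extracellular inhibitors and the targets had negative medians in both comparisons of Oxf with vehicle, and also in CKD-vehicle against sham-vehicle. That last comparison shares its hearts with the vehicle sides of the others. For the inhibitors the medians were -0.44 in CKD mice, -0.54 in sham mice and -0.22 in CKD-vehicle against sham-vehicle. For the targets they were -0.20, -0.19 and -0.22. For Oxf averaged over surgery all 4 inhibitors tested were below 0, with a median of -0.53. Of these, Fst (follistatin) had a low level, with group means of 0.69 to 1.48 CPM, and the most negative value, at -0.78. Those of Dcn (decorin), Bgn (biglycan) and Fmod were -0.66, -0.39 and -0.35. The 3 inhibitors Fst, Dcn and Bgn had an unadjusted p under 0.05 (edgeR). Of the 18 targets tested 13 were below 0, with a median of -0.16, and 6 of these with 2 of the others were under that p, which 23.0% of all genes were in this comparison. The 4 CCN genes tested were all below 0 with a median of -0.26, while the 11 latency and activation genes had a median of 0.08. DESeq2 passed 7 of the 54 in this comparison, in a test that passed 9.97% of all genes, and limma voom passed 14, beside 21.9% of all genes. Genes passed by both were Acvrl1 and Tgfbrap1, which were higher, and Fkbp1a, Dcn, Postn, Col3a1 and Cdkn1a, which were lower.

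DESeq2 also passed Lrrc32, which was lower in CKD-Oxf than in sham-Oxf and lower for surgery averaged over gavage, where DESeq2 passed 0.421% and 0.485% of all genes. limma voom passed 5 of the 54 in CKD-Oxf against CKD-vehicle, in a test that passed 14.9% of all genes, so the list held no more calls than the background. The 5 were Tgfbrap1 and Smurf1, a ubiquitin ligase that acts on Smads and receptors, which were higher, and Fkbp1a, Dcn and Cdkn1a, which were lower.

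Dcn and Col1a1 are also fibroblast markers. The fibroblast score, over 5 genes that were all detected, averaged -0.49 for CKD-Oxf, -0.43 for sham-Oxf and 0.03 for CKD-vehicle relative to sham-vehicle. Summed CPM of the 5 spanned 190.6 to 499.8 for CKD-Oxf, 213.1 to 454.7 for sham-Oxf, 218.3 to 632.9 for sham-vehicle and 297.7 to 622.6 for CKD-vehicle. Fmod, an inhibitor, and Comp, a target, are also in a list of 4 valve and cartilage markers. That score averaged -0.94 ± 0.46 (SD) for CKD-Oxf, -0.55 ± 1.00 for sham-Oxf and -0.58 ± 0.62 for CKD-vehicle. The part of fibroblast or valve RNA in the lower target and inhibitor values was not tested.

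**Figure D3:**
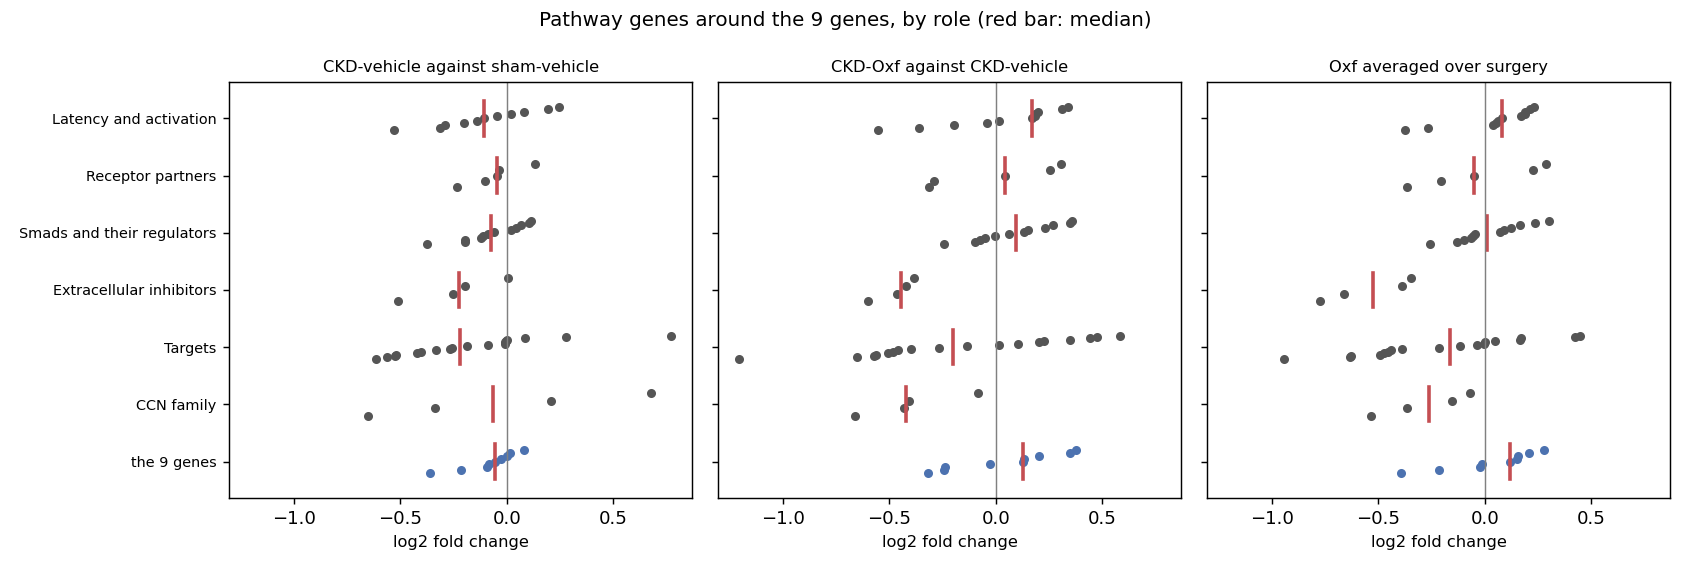
Log2 fold change (horizontal axis, edgeR) of the 54 pathway genes by role and of the 9 genes (blue) in 3 comparisons; points are genes and red bars medians. The extracellular inhibitors and CCN genes lie below 0 for Oxf averaged over surgery, with medians of -0.53 and -0.26.

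Between hearts of the same group, Tgfbr2 varied with both other receptors and with Ctgf. With group means removed, 3 of 36 pairs of the 9 genes passed a permutation test within groups, adjusted over both measures of the 36 pairs. Tgfbr1 and Tgfbr2 had r = 0.62 and rho = 0.68 over 28 libraries (adjusted permutation p of 0.0186 and 0.0180). Tgfbr2 and Tgfbr3 had r = 0.64 and rho = 0.62 (adjusted permutation p of 0.0186 and 0.0199). The third pair, Tgfbr2 and Ctgf, had r = 0.62 and rho = 0.66 (adjusted permutation p = 0.0186 for both). Without the 2 libraries farthest from the median of the first gene, r was 0.56, 0.57 and 0.60.

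No pair of a ligand and a receptor passed. Tgfb2 and its co-receptor Tgfbr3 had r = 0.38 and rho = 0.48 (adjusted permutation p of 0.198 and 0.109). The most negative pair was Tgfb1 and Tgfbr1, with r = -0.36 and rho = -0.41 (adjusted permutation p of 0.215 and 0.170). Tgfb3 and Smad7 had r = 0.48 and rho = 0.49 (adjusted permutation p = 0.0863 for both). Tgfb1 and Smad7, which had the lowest unadjusted p-values of the 9 in CKD-Oxf against CKD-vehicle, had a rho of 0.14 between hearts.

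**Figure D4:**
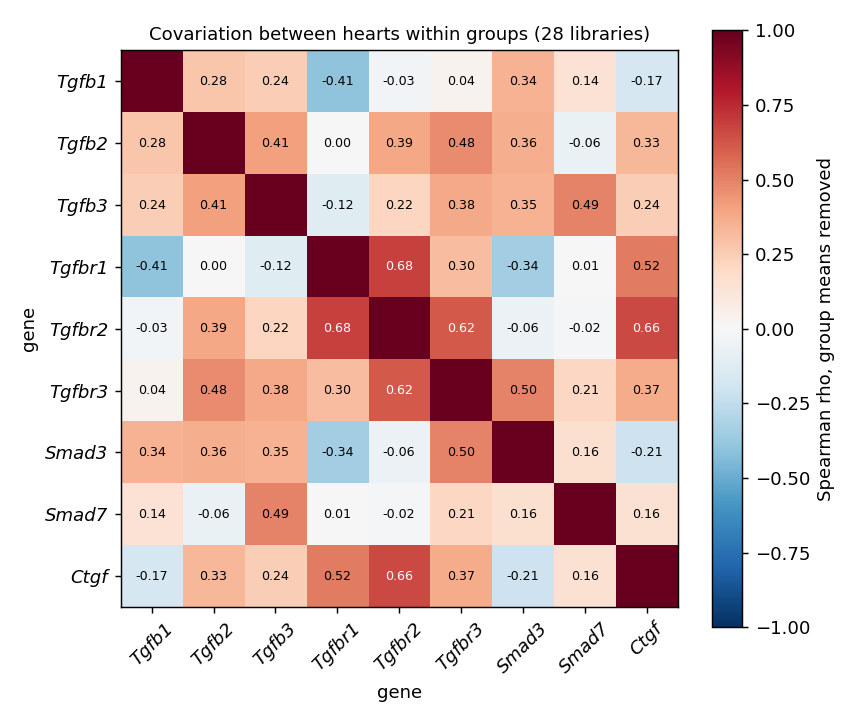
Spearman rho between each pair of the 9 genes over 28 libraries, with the mean of each group removed; red is positive and blue negative. The block of Tgfbr1, Tgfbr2, Tgfbr3 and Ctgf holds the highest values, up to 0.68 for Tgfbr1 and Tgfbr2.

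Each receptor gene followed more than 1 cell type score between hearts. Over 90 relations, of 9 genes with 10 scores, Tgfbr2 followed the fibroblast score most closely, with r = 0.86 and rho = 0.89 over 28 libraries (adjusted permutation p = 0.00045 for both). The raw p of 1e-05 is the smallest that the permutations can give. Without the 2 libraries farthest from the median score, r was 0.85. Tgfbr1 followed the same score with r = 0.73 and rho = 0.64 (adjusted permutation p of 0.0009 and 0.0097), and Ctgf with r = 0.53 and rho = 0.53 (adjusted permutation p of 0.0467 and 0.0469). Leaving out the 2 farthest libraries gave r = 0.63 for Tgfbr1 and 0.50 for Ctgf.

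Tgfbr2 also followed the macrophage score, with r = 0.62 and rho = 0.73 (adjusted permutation p = 0.0008 for both), and the atrial score, with r = 0.57 and rho = 0.63 (adjusted permutation p of 0.0361 and 0.0063). Tgfbr1 did so as well, with r = 0.42 and rho = 0.51 for macrophage (adjusted permutation p of 0.0303 and 0.0467) and r = 0.48 and rho = 0.55 for atrial (adjusted permutation p of 0.0478 and 0.0342). Without the 2 farthest libraries, r with macrophage and atrial was 0.63 and 0.44 for Tgfbr2, and 0.52 and 0.58 for Tgfbr1. The lowest macrophage score, -1.46, was that of sham-Oxf replicate 1. Without that library, rho of Tgfbr1 with macrophage was 0.35 and that of Tgfbr2 0.73.

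Tgfbr3 stood closest to the atrial score, with r = 0.73 and rho = 0.70 (adjusted permutation p of 0.0008 and 0.00131), and r = 0.69 without the 2 farthest libraries. It also followed the fibroblast score, with r = 0.57 and rho = 0.64 (adjusted permutation p of 0.0302 and 0.0097), and ran against the endothelial score, with r = -0.53 and rho = -0.55 (adjusted permutation p of 0.0467 and 0.0361). Tgfbr3 passed by rho alone with the 7SL share, with r = -0.49 and rho = -0.52 (adjusted permutation p of 0.0815 and 0.0467). By r alone it passed with a score of 8 immediate-early genes, with r = 0.56 and rho = 0.40 (adjusted permutation p of 0.0467 and 0.176). Without the 2 farthest libraries r was -0.44 for the 7SL share and 0.43 for the immediate-early score. Smad3 ran against the cardiomyocyte score, with r = -0.79 and rho = -0.79 (adjusted permutation p of 0.00072 and 0.0008), and r = -0.78 without the 2 farthest. It ran against the endothelial score too, with r = -0.67 and rho = -0.69 (adjusted permutation p of 0.00457 and 0.00255). The cardiomyocyte score tended to be higher in libraries with more 7SL RNA. In sham-vehicle it was 0.43 in the library with the highest share (19.9%) and -0.14 in that with the lowest (2.30%). The lowest cardiomyocyte score of that group, -0.67, came at a share of 7.82%, and the correlation of score and share was not computed. Whether the Smad3 relations with this score and with the 7SL share are separate was not tested.

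Tgfb3 followed the mural score, with r = 0.53 and rho = 0.54 (adjusted permutation p of 0.0467 and 0.0478), and r = 0.36 without the 2 farthest libraries. It ran against the clock score, with r = -0.54 and rho = -0.50 (adjusted permutation p of 0.0467 and 0.0622). For the clock score r was -0.35 without the 2 farthest libraries and -0.51 without sham-Oxf replicate 1. Tgfb2 had r = -0.42 with that score (permutation p = 0.0371, adjusted p = 0.167) and Tgfbr2 r = -0.31 (adjusted permutation p = 0.418). For the other 6 genes r with it lay between -0.18 and -0.03.

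**Figure D5:**
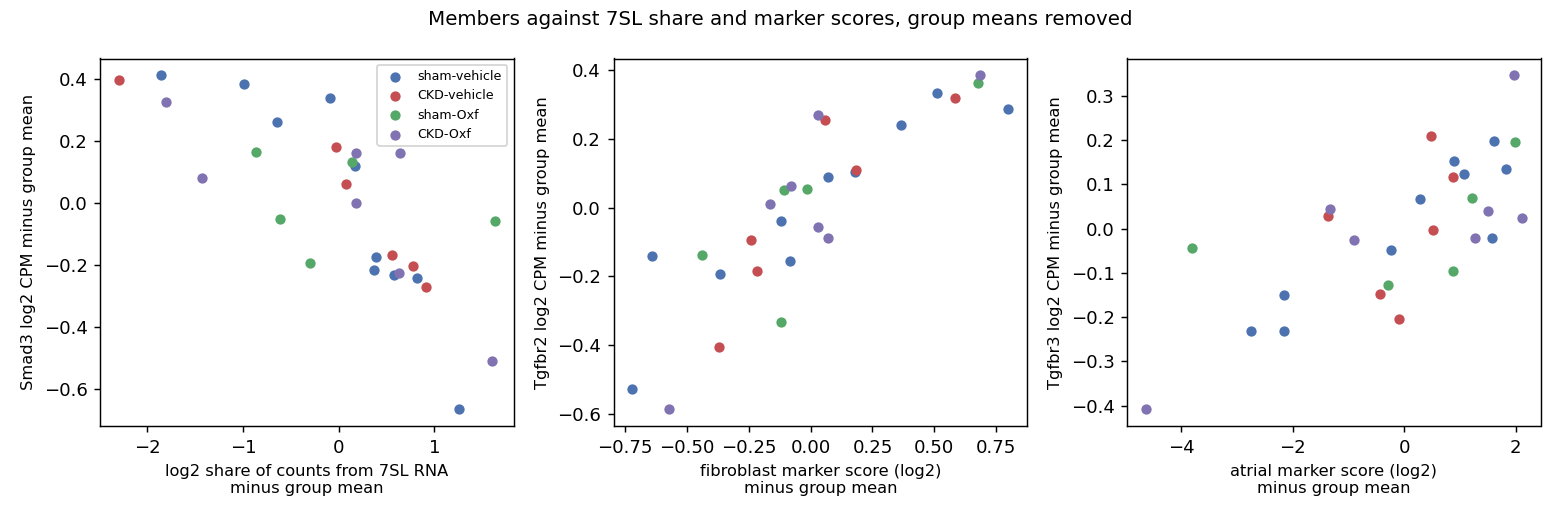
Log2 CPM of Smad3, Tgfbr2 and Tgfbr3 against the 7SL share, the fibroblast score and the atrial score, each minus its group mean; points are the 28 libraries, coloured by group. Tgfbr2 climbs with the fibroblast score (r = 0.86) and Smad3 falls with the 7SL share (r = -0.76).

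The genes most like each member, by Spearman rho with group means removed, were sought over the 28 libraries among 13905 genes whose mean log2 CPM reached 1. Tgfbr2 had the closest ones, namely Serping1, the C1 inhibitor of complement (rho = 0.94), Rnase4 (0.93) and Twsg1 (0.93), an extracellular BMP modulator. Tgfbr3 was followed by Creb3l2 (0.91), Slit3 (0.87) and Gnao1 (0.86). For Tgfbr1 they were Ints12 (0.86), Aph1b (0.85) and Cfhr2 (0.85).

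Among the ligands, the genes most like Tgfb1 were Wipf1 (0.82), Slc24a3 (0.71) and Adnp (0.69). Those of Tgfb2 were Zmat3 (0.86), Zdhhc9 (0.85) and Cd248 (0.84), a marker of stromal cells, and those of Tgfb3 were Atmin (0.87), Myh10 (0.82) and Zcchc24 (0.80). Smad7 was nearest to Trim47 (0.74), Palm (0.73) and Smad6 (0.70), the other inhibitory Smad. Smad3 was nearest to RP24-240G4.2 (0.90), Mir143hg (0.90) and Gli1 (0.90). For Ctgf they were Ehd4 (0.77), Tmem119 (0.77) and Itgav (0.76), the integrin alpha V subunit that takes part in releasing latent TGF-beta. Without sham-Oxf replicate 1, 9 of these 27 genes were still among the 3 nearest of their member.

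Mouse number, a label that runs with group, was related to the 9 genes within sham-vehicle, the largest group. None passed over the 18 values computed. The strongest were Tgfb3, with r = -0.61 and rho = -0.60 (permutation p of 0.0620 and 0.0740, adjusted p = 0.363 for both, n = 10), and Smad7, with r = -0.58 and rho = -0.59 (permutation p of 0.0808 and 0.0807, adjusted p = 0.363 for both, n = 10). When the 2 mice with the most extreme numbers were left out, r became -0.81 for Tgfb3 and -0.78 for Smad7.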

How the data were processed

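Raw gene counts of 28 mouse ventricle libraries were deposited by the authors as 1 table, a whole-number count per gene. The submitters' processing notes name FastQC 0.11.7, MultiQC 1.9, STAR 2.6.1d, Subread, featureCounts 1.6.3 and the mm10 build. The annotation and strand setting are not given in the sources used here, so a gene and an overlapping one on the other strand may share reads. Groups came from the labels and replicates are separate mice, numbered in accession order.

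Counts were analysed in R 4.3.3 with edgeR 4.0.16: filterByExpr with a minimum count of 10 kept 24273 of 45513 genes, TMM scaled the libraries, and 1 quasi-likelihood fit of 4 group means gave 7 contrasts, adjusted by Benjamini-Hochberg with a threshold of 0.05. CPM are counts per 1000000 counts of TMM-scaled library size, and log2 CPM used a prior count of 2. DESeq2 1.42.0, limma 3.58.1 voom with sample weights, other scaling and filters, clock and 7SL covariates, compared groups only and leaving out each library were alternatives. Each score is a mean of log2 CPM relative to sham-vehicle. Correlations used 100000 two-sided permutations within groups. Positions and merged exon lengths are from GENCODE M21 (GRCm38) and promoters from RefSeq (GRCm38.p6). The fitting code was tested on simulated counts, for CKD-Oxf against CKD-vehicle. At the adjusted threshold it recovered 6 of 100 genes changed 1.5-fold and 32 of 100 changed 2-fold. It called 3 of 23610 unchanged genes. A gene that missed the threshold is therefore not shown to be unchanged. The changed genes were drawn at random from all genes tested, whose median SD within groups was 0.55 on the log2 scale. The members had 0.17 to 0.29, except Ctgf at 0.59, so the recovery rates are not those of the members. The 9 genes, the lists and the tests were chosen with earlier results of these data known. All 9 genes are named in each comparison. Of the pathway list, genes past the threshold were to be named, or else the 1 with the smallest p per comparison, and as like genes the 3 with the highest Spearman rho. Genes passed only by DESeq2 or limma, and the 3 inhibitors under an unadjusted p of 0.05, were named after their values were seen. Library totals were 19798965 to 65378162 counts and the lowest count of a member was 312.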

Additional observations from a re-analysis of the deposited data

Results flagged for a closer look

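Of 36 sets of values, the 9 genes in 4 groups, 1 held a library far from the rest, where chance flags about 1 in 20, or 1.8 of 36. It was Tgfb1 in CKD-vehicle, whose highest mouse, replicate 5, had 21.7 CPM against 18.6 for the next. The gap took 0.678 of the log2 range of the 6 mice, above the limit of 0.625. That library also had the lowest 7SL share of its group, at 2.26% of counts. Within groups, Tgfb1 had r = -0.43 and rho = -0.25 with the log2 7SL share over 28 libraries (adjusted permutation p of 0.0947 and 0.519). Leaving out the 2 libraries farthest from the median share gave r = -0.21. The part of 7SL share in this 1 value was not tested. Without replicate 5 the Tgfb1 difference of CKD-vehicle from sham-vehicle was -0.41 (unadjusted p = 0.00301, edgeR). That of CKD-Oxf from CKD-vehicle was 0.40 (unadjusted p = 0.00607, edgeR).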

How the results depend on the processing

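No paired analysis was possible because replicates are different mice whose numbers pair no samples across groups. Of 1737 alternative values of the 63 member differences, 1597 kept their direction and side of the threshold, 4 passed the threshold, all with limma voom as given above, and 136 changed sign, for 27 differences that all had missed the threshold. Tgfb1 kept its direction in all 24 alternatives of CKD-vehicle against sham-vehicle and in all 21 of CKD-Oxf against CKD-vehicle, with adjusted p-values of at least 0.0674 and 0.0330. The Tgfb1 and Smad7 calls by limma voom used weights per library that edgeR does not use.

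The causes of these sign changes were not tested. Under DESeq2 these were Tgfbr1 (-0.0096) and Tgfbr3 (-0.021) in CKD-vehicle against sham-vehicle; Tgfbr2 (0.0086) in the interaction; Smad7 (-0.0021) in surgery averaged over gavage. Under limma voom these were Tgfbr3 (-0.014) in CKD-vehicle against sham-vehicle; Tgfb1 (-0.059), Tgfb3 (-0.037) and Tgfbr2 (0.064) in sham-Oxf against sham-vehicle; Tgfb1 (0.051) in CKD-Oxf against sham-Oxf; Smad3 (0.024) in the interaction; Tgfbr2 (0.019) in Oxf averaged over surgery; Smad7 (-0.029) in surgery averaged over gavage. Under DESeq2's size factors in edgeR these were Tgfbr1 (-0.0092) and Tgfbr3 (-0.021) in CKD-vehicle against sham-vehicle; Tgfbr2 (0.0087) in the interaction; Smad7 (-0.0021) in surgery averaged over gavage. Under at least 10 counts in every library these were Tgfbr1 (-0.018) and Tgfbr3 (-0.032) in CKD-vehicle against sham-vehicle; Tgfbr2 (0.012) in the interaction; Smad7 (-0.011) in surgery averaged over gavage. Under the clock covariate these were Tgfbr1 (-0.074), Tgfbr3 (-0.0045) and Ctgf (-0.11) in CKD-vehicle against sham-vehicle; Tgfb2 (0.088), Tgfbr2 (0.23) and Ctgf (0.026) in CKD-Oxf against CKD-vehicle; Tgfbr2 (0.15) in sham-Oxf against sham-vehicle; Tgfbr2 (0.084) in the interaction; Tgfb2 (0.25) and Tgfbr2 (0.19) in Oxf averaged over surgery; Smad7 (-0.029) in surgery averaged over gavage. Under the 7SL covariate these were Tgfb2 (0.0068), Tgfbr1 (-0.023) and Smad3 (0.037) in CKD-vehicle against sham-vehicle; Smad3 (-0.011) in CKD-Oxf against CKD-vehicle; Tgfb1 (-0.040) and Smad3 (-0.065) in sham-Oxf against sham-vehicle; Tgfb1 (0.015) and Smad3 (0.091) in CKD-Oxf against sham-Oxf; Smad3 (0.054) in the interaction; Smad3 (-0.038) in Oxf averaged over surgery; Smad3 (0.064) in surgery averaged over gavage.

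In CKD-vehicle against sham-vehicle, leaving out 1 library at a time moved Tgfb2 from -0.11 to 0.032, Tgfbr1 from -0.15 to 0.072, Tgfbr3 from -0.060 to 0.041 and Ctgf from -0.042 to 0.18. In CKD-Oxf against CKD-vehicle, leaving out 1 library at a time moved Tgfbr2 from -0.10 to 0.065. In sham-Oxf against sham-vehicle, leaving out 1 library at a time moved Tgfb1 from -0.012 to 0.16, Tgfb3 from -0.012 to 0.16, Tgfbr2 from -0.13 to 0.053 and Smad7 from -0.010 to 0.26. In the interaction, leaving out 1 library at a time moved Tgfb3 from -0.033 to 0.14, Tgfbr1 from -0.12 to 0.086, Tgfbr2 from -0.081 to 0.11, Smad3 from -0.10 to 0.048 and Ctgf from -0.013 to 0.31. In Oxf averaged over surgery, leaving out 1 library at a time moved Tgfb2 from -0.074 to 0.033 and Tgfbr2 from -0.073 to 0.015. In surgery averaged over gavage, leaving out 1 library at a time moved Tgfbr1 from -0.10 to 0.013 and Smad7 from -0.044 to 0.078. For mouse number, r of Tgfbr3 was 0.034 without the 2 farthest mice, against -0.056.

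The number of all genes passing, which sets the background above, moved more than the members did, for causes that were not tested. With DESeq2 it was 29 in CKD-vehicle against sham-vehicle, 190 in CKD-Oxf against CKD-vehicle, 131 in sham-Oxf against sham-vehicle, 100 in CKD-Oxf against sham-Oxf, 2133 in Oxf averaged over surgery and 113 in surgery averaged over gavage. With limma voom it was 55 in CKD-vehicle against sham-vehicle, 3620 in CKD-Oxf against CKD-vehicle, 32 in sham-Oxf against sham-vehicle, 5307 in Oxf averaged over surgery and 125 in surgery averaged over gavage. With DESeq2's size factors in edgeR it was 5 in CKD-Oxf against CKD-vehicle. With no filter on low counts it was 1 in CKD-vehicle against sham-vehicle, 5 in CKD-Oxf against CKD-vehicle and 161 in Oxf averaged over surgery. With at least 10 counts in every library it was 14 in CKD-Oxf against CKD-vehicle and 1422 in Oxf averaged over surgery. With the clock covariate it was 0 in CKD-vehicle against sham-vehicle, 0 in CKD-Oxf against CKD-vehicle, 2 in sham-Oxf against sham-vehicle, 0 in Oxf averaged over surgery and 2 in surgery averaged over gavage. With the 7SL covariate it was 22 in CKD-vehicle against sham-vehicle, 141 in sham-Oxf against sham-vehicle, 132 in Oxf averaged over surgery and 45 in surgery averaged over gavage. With the compared groups only it was 1 in CKD-vehicle against sham-vehicle. Leaving out 1 library gave 0 to 1 in CKD-vehicle against sham-vehicle, 0 to 927 in CKD-Oxf against CKD-vehicle, 0 to 20 in sham-Oxf against sham-vehicle, 109 to 3362 in Oxf averaged over surgery and 0 to 1 in surgery averaged over gavage. For Oxf averaged over surgery the extremes came without CKD-vehicle replicate 2 and without CKD-Oxf replicate 4, and CKD-Oxf against CKD-vehicle had 927 genes without the latter and 8 with it.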
